A study of Mus musculus with 6 samples.

Results

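Matricellular proteins are secreted into the matrix around cells, where they organise fibrils and signal to cells rather than bear load. The 10 genes described here were chosen by name: *Fn1* (fibronectin), *Vtn* (vitronectin), *Postn* (periostin), *Tgfbi* (the periostin relative that TGF-beta induces), the tenascin genes *Tnc*, *Tnxb* and *Tnn*, *Sparc*, its relative *Sparcl1*, and *Ecm1* (extracellular matrix protein 1). All 10 were found among the 44788 gene symbols of the count table, and 9 of them were among the 14550 genes with enough counts to be tested. The remaining gene, *Tnn* (tenascin W), had 0 counts in all 6 libraries.

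Cells pull secreted fibronectin into fibrils through integrins, and other matrix proteins settle on that scaffold. Periostin bridges fibronectin, tenascin C and type I collagen, tenascin X stabilises collagen fibrils in tendon and skin, and Sparc binds newly made collagen and affects how its fibrils form. In tendon, fibronectin and tenascin C are also known as genes of growth, loading and repair.

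Bulk RNA sequencing measured the RNA of whole tail tendons of 3-week-old C57BL/6 mice, 3 WT and 3 homozygous for a knockout of *Mkx*, a homeobox transcription factor of tendon (*Mkx-/-*). The study used the knockout as a model of tendon ossification and compared the genotypes to find genes linked to it. Both groups share strain, tissue and age, and no treatment was given according to the labels. The mutated exons, and whether a library came from 1 mouse, were not given in the sources used here, so p-values measure only the spread between these libraries.

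The libraries held 11798036 to 14160301 counts in WT and 10835070 to 12631567 counts in *Mkx-/-* tendons. *Mkx* itself was at 1381 to 1825 counts in WT and at 491 to 620 counts in *Mkx-/-* tendons (log2 fold change -1.60, SE 0.16, adjusted p = 0.00183, edgeR). Of 9 tendon marker genes, 9 were detected, and their summed level was 381900 to 524600 CPM in WT and 244900 to 339600 CPM in *Mkx-/-* tendons, most of it from *Col1a1* and *Col1a2*. WT replicate 3 was the only library with counts on the Y-linked gene *Ddx3y* (301) and had 1 count on *Xist*, against 1289 to 1866 in the other 5 libraries, so sex was not balanced. Levels below are in CPM, each library's counts as a share of its total after TMM scaling, which brings libraries to a common effective size. Each log2 fold change, *Mkx-/-* over WT, comes from edgeR's fit, with p-values adjusted over the 14550 tested genes.

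In *Mkx-/-* tendons *Fn1*, *Postn* and *Ecm1* rose, by 2.89-fold, 2.82-fold and 1.93-fold. No matricellular gene fell past the adjusted threshold of 0.05, although *Sparc*, the most abundant of them, was 1.70-fold lower in the fit and lower in each *Mkx-/-* library than in any WT library. Thus 3 of the 9 tested matricellular genes were higher, where 3.18% of all tested genes were, and 0 were lower, where 2.26% of all tested genes were. With the study's further requirement of a log2 fold change beyond 1, *Fn1* and *Postn* counted as upregulated (1.89% of all tested genes) and none as downregulated (1.33%). Calls were more frequent among abundant genes: among tested genes averaging 100 CPM or more, 8.77% were higher, and 8 of the 9 matricellular genes were that abundant. The unadjusted p was under 0.05 for 6 higher and 1 lower gene of the 9, as for 12.5% and 10.1% of all tested genes. DESeq2 called 4 higher (*Fn1*, *Postn*, *Vtn* and *Ecm1*) and 1 lower (*Sparc*), where it called 4.90% and 3.60% of the genes to which it gave an adjusted p. Scaling by total counts alone, which moves the median log2 fold change of all tested genes to 0.25, called 5 of the 9 higher and 1 lower, among 1358 higher and 197 lower genes in all, against 463 and 329 with TMM. Without WT replicate 3, *Fn1* was the 1 matricellular gene still called. All *Mkx-/-* libraries lay above all WT libraries for *Fn1*, *Postn*, *Tnc* and *Ecm1*, as for 14.6% of all tested genes, and below them for *Sparc*, as for 13.6%. The median log2 fold change was 0.95 over the 9 genes and -0.0037 over all tested genes.

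**Figure D1:**
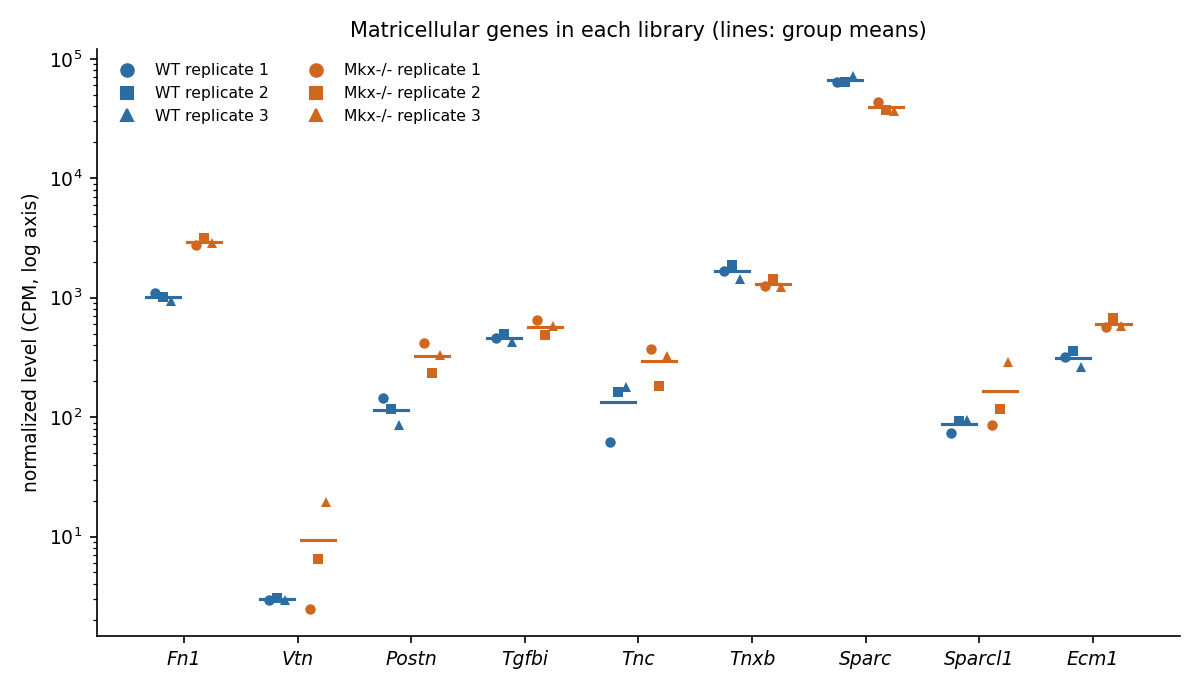
Normalized level (CPM, log axis) of the 9 detected matricellular genes in each of the 3 WT (blue) and 3 *Mkx-/-* (orange) libraries, with a line at each group mean. The groups are apart for *Fn1*, *Postn*, *Tnc*, *Sparc* and *Ecm1*, and *Vtn* and *Sparcl1* are spread widely among the *Mkx-/-* libraries.

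The stretches around the transcription starts of *Postn*, *Ecm1* and *Sparc* are shown, a choice made after the levels were known. Those of *Tnc*, *Vtn*, *Tgfbi*, *Tnxb* and *Tnn* are not shown. Whether any motif bears on the levels was not tested. RefSeq promoter entries (GRCm38.p6, 250 bases before to 50 after each start) matched 8 of the 10 genes, with 10 entries in all. None was found for *Fn1* or *Sparcl1*, so the matches below do not cover them. *Postn* also has an entry for a start further upstream, which held none of the short motifs named below and is not shown. The *Postn* position given below therefore holds only for the entry shown, which was picked because it has a match. The sequences below run 5′ to 3′ on the strand of the gene, from 100 bases before to 20 after the start, and capitals mark 2 short motifs. They are TATAAA, the core of a TATA box, and the Smad-binding core CAGACA. The latter appears as TGTCTG where it lies on the opposite strand.
Postn, chr3:54361007-54361126, + strand: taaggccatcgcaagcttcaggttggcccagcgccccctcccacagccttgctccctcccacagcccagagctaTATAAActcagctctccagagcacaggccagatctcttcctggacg
Ecm1, chr3:95739550-95739669, − strand: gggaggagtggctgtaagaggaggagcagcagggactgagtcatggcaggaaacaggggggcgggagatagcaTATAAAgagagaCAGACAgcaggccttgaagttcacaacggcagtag
Sparc, chr11:55420061-55420180, − strand: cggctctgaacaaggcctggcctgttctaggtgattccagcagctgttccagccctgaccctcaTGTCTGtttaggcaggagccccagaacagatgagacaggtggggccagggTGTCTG
The TATAAA of *Postn* begins at position -26 and that of *Ecm1* at -27 from the start, on the strand of the gene. A TATAAA on that strand beginning 35 to 20 bases before the start was found in 1.84% of 32851 mouse promoter entries, a window chosen after these matches were seen. In the whole 300 bases and on either strand, TATAAA was found in 4 genes (*Postn*, *Ecm1*, *Tnc* and *Vtn*) and in 13.6% of all entries. Of these, *Tnc* and *Vtn* did not pass the threshold in the main fit. CAGACA was found in 4 genes (*Ecm1*, *Tnc*, *Sparc* and *Vtn*) and in 21.0% of all entries. ACANNTGT, a palindromic sequence reported for Iroquois-class homeodomains such as that of Mkx, was found in 0 of the 8 genes and in 7.38% of all entries. The matches of *Vtn* to TATAAA on opposite strands overlap each other, and TATAAA and CAGACA share no bases in these entries. These matches describe letters only.

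Fibronectin carried the most firmly measured difference. *Fn1* (minus strand of chromosome 1, 71632094 to 71699774 in mm9) had 1091, 1021 and 931 CPM in WT and 2774, 3175 and 2850 CPM in *Mkx-/-* libraries. The lowest *Mkx-/-* library stood far above the highest WT library, and libraries of the same genotype lay close together. The level rose from 1014 ± 79.8 CPM (SD, n = 3) across WT libraries to 2933 ± 213 CPM (SD, n = 3) across *Mkx-/-* libraries, a log2 fold change of 1.53 (SE 0.15, 95% interval 1.18 to 1.88, adjusted p = 0.00173, edgeR). In rank by mean CPM among all gene symbols of the count table *Fn1* moved from 53 to 22. It was past the threshold under all 16 alternative analyses run, with log2 fold changes of 1.46 to 1.78. In the mm9 annotation 292 bases of its exons overlap those of *Apol7d* on the opposite strand, and whether the counting used strand was not given in the sources used here.

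Vitronectin, a plasma and matrix protein that shares integrin receptors with fibronectin, behaved differently in each *Mkx-/-* library. *Vtn* (plus strand of chromosome 11, 78312593 to 78315826) was counted 37, 31 and 37 times in WT and 27, 92 and 244 times in *Mkx-/-* libraries. In CPM this was 2.91, 3.04 and 2.96 in WT, and 2.47, 6.46 and 19.3 in *Mkx-/-* replicates 1, 2 and 3. *Mkx-/-* replicate 1 thus lay below all WT libraries and replicate 3 far above them. The coefficient of variation was 2.17% in WT, below the 16.9% that counting error alone would give, and 93.5% in *Mkx-/-* tendons. The log2 fold change of 1.67 (SE 0.63, 95% interval 0.23 to 3.10) did not pass (adjusted p = 0.161, edgeR). DESeq2 called it (adjusted p = 0.0382), as did edgeR without *Mkx-/-* replicate 1 (log2 fold change 2.08, adjusted p = 0.0442), whereas without *Mkx-/-* replicate 3 the log2 fold change was 0.61 (adjusted p = 0.510). Hepatocyte markers, from the organ that makes most plasma vitronectin, summed to at most 0.632 CPM in any library.

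Periostin and Tgfbi are the pair of secreted proteins built of fasciclin domains. *Postn* (plus strand of chromosome 3, 54165031 to 54194961) had 144, 117 and 86.0 CPM in WT and 416, 233 and 328 CPM in *Mkx-/-* libraries. Both groups were spread, but the lowest *Mkx-/-* library, replicate 2, was still above the highest WT library. The level rose from 116 ± 29.3 CPM (SD, n = 3) to 326 ± 91.3 CPM (SD, n = 3), a log2 fold change of 1.49 (SE 0.25, 95% interval 0.91 to 2.07, adjusted p = 0.0165, edgeR). The call was lost without WT replicate 2 (adjusted p = 0.0766) and without WT replicate 3 (adjusted p = 0.0645), and held in the other 14 of 16 alternatives. *Postn* moved from rank 760 to rank 210 by mean CPM.

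*Tgfbi* (plus strand of chromosome 13, 56710920 to 56740923) had 459, 493 and 427 CPM in WT and 649, 488 and 575 CPM in *Mkx-/-* libraries. *Mkx-/-* replicate 2 fell inside the WT range, so the groups overlapped. Its log2 fold change of 0.31 (SE 0.15, 95% interval -0.03 to 0.65) did not pass (adjusted p = 0.262, edgeR), and the interval reaches from no difference to a log2 increase of 0.65. For both fasciclin genes the lowest *Mkx-/-* library was replicate 2 and the highest was replicate 1. Within a library, *Postn* had 0.251 ± 0.0581 counts per *Tgfbi* count in WT and 0.563 ± 0.0815 (SD, n = 3 each) in *Mkx-/-* tendons, without overlap.

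The tenascins are large proteins of several arms that modulate adhesion. Their members differed in level, and the estimates for *Tnc* and *Tnxb* had opposite signs, but neither passed the threshold in the main fit. *Tnc* (minus strand of chromosome 4, 63620819 to 63681760) had 62.3, 161 and 178 CPM in WT and 374, 181 and 324 CPM in *Mkx-/-* libraries. The groups did not overlap, but WT replicate 1 stood well below the other WT libraries, and *Mkx-/-* replicate 2 was barely above WT replicate 3. The mean was 134 ± 62.3 CPM (SD, n = 3) across WT libraries and 293 ± 100.04 CPM (SD, n = 3) across *Mkx-/-* libraries. The log2 fold change of 1.13 (SE 0.40, 95% interval 0.22 to 2.04) did not pass (adjusted p = 0.135, edgeR). Leaving out WT replicate 1 gave 0.79 and leaving out *Mkx-/-* replicate 2 gave 1.39, and neither passed (adjusted p = 0.128 and 0.123). Scaling by total counts and a filter of 1 count in any library brought *Tnc* past the threshold (edgeR adjusted p = 0.0354 and 0.0150). A lincRNA on the opposite strand shares 176 exonic bases with *Tnc*.

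*Tnxb* (plus strand of chromosome 17, 34807480 to 34856760), the gene of tenascin X, had 1686, 1878 and 1444 CPM in WT and 1254, 1445 and 1216 CPM in *Mkx-/-* libraries. *Mkx-/-* replicate 2 and WT replicate 3 were nearly equal, and the other *Mkx-/-* libraries were lower than every WT library. The log2 fold change of -0.35 (SE 0.16, 95% interval -0.72 to 0.01, adjusted p = 0.238, edgeR) did not pass in any of the 16 alternatives, which gave -0.47 to -0.10. *Tnc* counts per *Tnxb* count were 0.0370, 0.0858 and 0.123 in WT and 0.298, 0.125 and 0.266 in *Mkx-/-* libraries, so the lowest *Mkx-/-* library barely exceeded the highest WT library. *Tnn*, best known from developing bone, had 0 counts in every library, and 3 counts, the limit that a count of 0 allows, correspond to 0.211 to 0.294 CPM. That limit covers counting error only.

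*Sparc* encodes a collagen- and calcium-binding glycoprotein. On the minus strand of chromosome 11 (55208002 to 55233582), it had 63829.6, 63739.6 and 71858 CPM in WT and 43629, 37326 and 36686 CPM in *Mkx-/-* libraries. Every *Mkx-/-* library was below every WT library, by a wide margin compared with the spread inside either group. The mean was 66476 ± 4661 CPM (SD, n = 3) across WT libraries and 39214 ± 3837 CPM (SD, n = 3) across *Mkx-/-* libraries. The log2 fold change of -0.76 (SE 0.23, 95% interval -1.30 to -0.23) missed the threshold in edgeR (adjusted p = 0.0994). DESeq2 called it at almost the same size (-0.77, adjusted p = 3.31e-06), and so did edgeR with robust estimation, with total-count scaling and with a filter of 1 count in any library (adjusted p = 0.0482, 0.0471 and 0.0475). Leaving out 1 library moved the log2 fold change between -0.87 and -0.72, and edgeR called it in 0 of those 6 fits.

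*Sparc* was the third most abundant gene by mean CPM in both genotypes. Its share of all counts was 6.40%, 5.50% and 6.33% in WT and 4.40%, 4.21% and 4.18% in *Mkx-/-* tendons, with narrow exact binomial 95% intervals (6.39% to 6.42% for WT replicate 1) that cover counting error only. *Col1a1* and *Col1a2*, the type I collagen genes, together took 35.6% to 43.0% and 24.1% to 30.4%. By edgeR the log2 fold change was -0.68 for *Col1a1* and -1.02 for *Col1a2*, and neither passed. Every *Mkx-/-* library was below every WT library for *Col1a2* but not for *Col1a1*. A ratio to *Col1a2* was not computed, so the ratio given here covers *Col1a1* only. *Sparc* per *Col1a1* count was 0.488, 0.282 and 0.360 in WT and 0.292, 0.387 and 0.363 in *Mkx-/-* libraries, so the WT range held all *Mkx-/-* values. *Fn1* per *Sparc* count, by contrast, was 0.0171, 0.0160 and 0.0130 in WT and 0.0636, 0.0851 and 0.0777 in *Mkx-/-* libraries, 4.91 times higher on average. Ratios within a library need no scaling between libraries, and these pairs were chosen after the levels were known.

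*Sparcl1*, also called hevin, is the closest relative of *Sparc* and is made by vessel-wall cells as well as by matrix cells. On the minus strand of chromosome 5 (104508130 to 104543107), it had 73.8, 92.5 and 94.4 CPM in WT and 85.9, 118 and 289 CPM in *Mkx-/-* libraries. Only *Mkx-/-* replicates 2 and 3 exceeded the WT range, and replicate 3 was 3.36 times replicate 1. The log2 fold change of 0.92 (SE 0.40, 95% interval 0.01 to 1.83) did not pass (adjusted p = 0.216, edgeR). Without *Mkx-/-* replicate 3 it was 0.23 (adjusted p = 0.616). A lincRNA on the opposite strand shares 201 exonic bases with *Sparcl1*.

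*Ecm1* encodes a secreted glycoprotein that binds other matrix proteins, fibronectin among them. On the minus strand of chromosome 3 (95538070 to 95543492), it had 317, 358 and 264 CPM in WT and 566, 676 and 574 CPM in *Mkx-/-* libraries. The groups were well apart. The level rose from 313 ± 47.1 CPM (SD, n = 3) to 605 ± 61.2 CPM (SD, n = 3), a log2 fold change of 0.95 (SE 0.16, 95% interval 0.59 to 1.31, adjusted p = 0.0153, edgeR). It thus passed the adjusted threshold but not the fold threshold of the study. The call was lost when WT replicate 3 (adjusted p = 0.0718) or *Mkx-/-* replicate 2 (adjusted p = 0.0556) was left out. *Ecm1* per *Fn1* count was 0.308 ± 0.0369 in WT and 0.206 ± 0.00602 (SD, n = 3 each) in *Mkx-/-* tendons, without overlap.

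**Figure D2:**
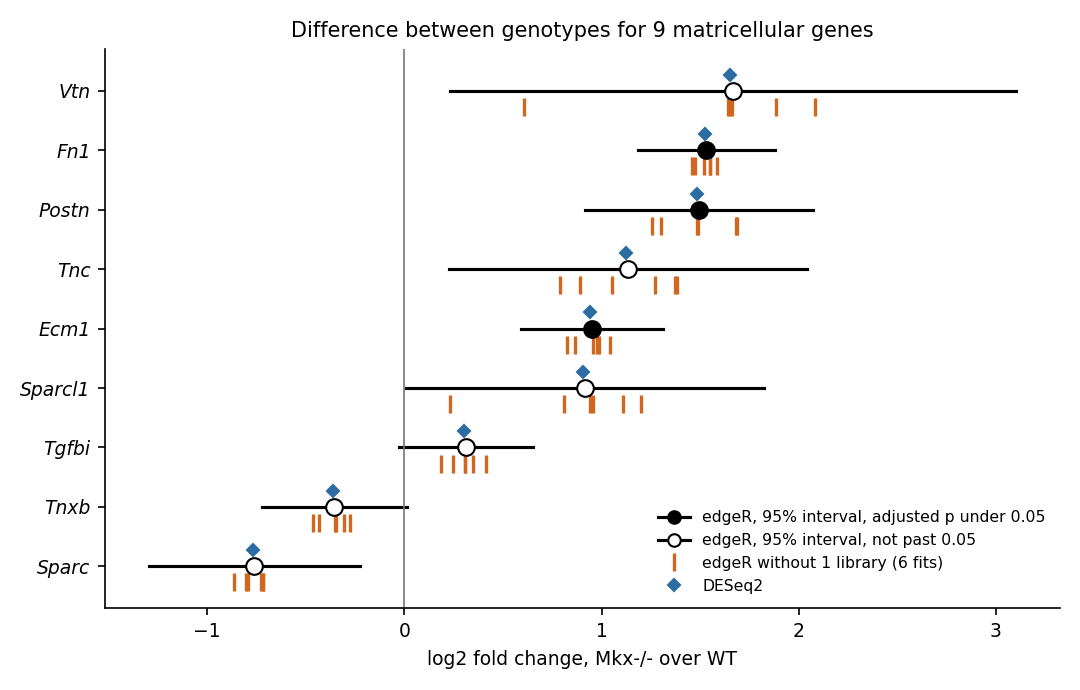
Log2 fold change of 9 matricellular genes with the 95% interval of edgeR's fit (filled circles: adjusted p under 0.05), DESeq2's estimate (blue) and the 6 estimates with 1 library left out (orange ticks). *Fn1*, *Postn* and *Ecm1* are filled, the *Sparc* estimates lie between -0.87 and -0.72, and for *Vtn* and *Sparcl1* a single tick, the fit without *Mkx-/-* replicate 3, lies apart at 0.61 and 0.23.

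Levels of different genes were compared per length, as CPM per kb of the union of annotated exons in mm9. In WT tendons *Sparc* led with a mean of 19740 CPM per kb, 127 times the next gene, and made up 97.05% of the summed level per length of the 10 genes. *Tgfbi* (155), *Tnxb* (133), *Ecm1* (124) and *Fn1* (122 CPM per kb) followed, and each neighbouring pair among these 4 overlapped between libraries. *Sparcl1* (27.9), *Tnc* (17.8), *Postn* (14.8) and *Vtn* (1.47 CPM per kb) came below them, with *Tnc* and *Postn* overlapping. In *Mkx-/-* tendons the order was *Sparc* (11650), *Fn1* (352), *Ecm1* (240), *Tgfbi* (192), *Tnxb* (104), *Sparcl1* (52.7), *Postn* (41.6), *Tnc* (39.0) and *Vtn* (4.64 CPM per kb). *Fn1* had moved from the lower end of an overlapping group to the place after *Sparc*, without overlap with *Ecm1*, and only *Sparcl1*, *Postn* and *Tnc* still overlapped with a neighbour. *Sparc* then made up 91.86% of the summed level.

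**Figure D3:**
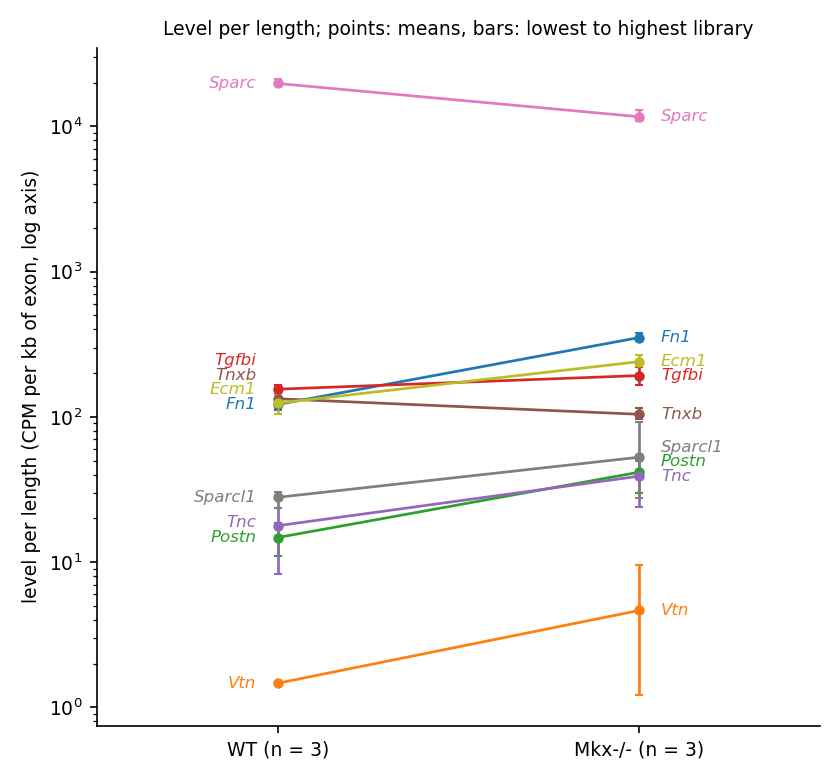
Mean level per length (CPM per kb of exon, log axis) of the 9 detected matricellular genes in WT and *Mkx-/-* tendons (n = 3 each), with bars from the lowest to the highest library. *Tgfbi*, *Tnxb*, *Ecm1* and *Fn1* lie together between 122 and 155 CPM per kb in WT and are spread from 104 to 352 CPM per kb in *Mkx-/-* tendons.

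**Figure D4:**
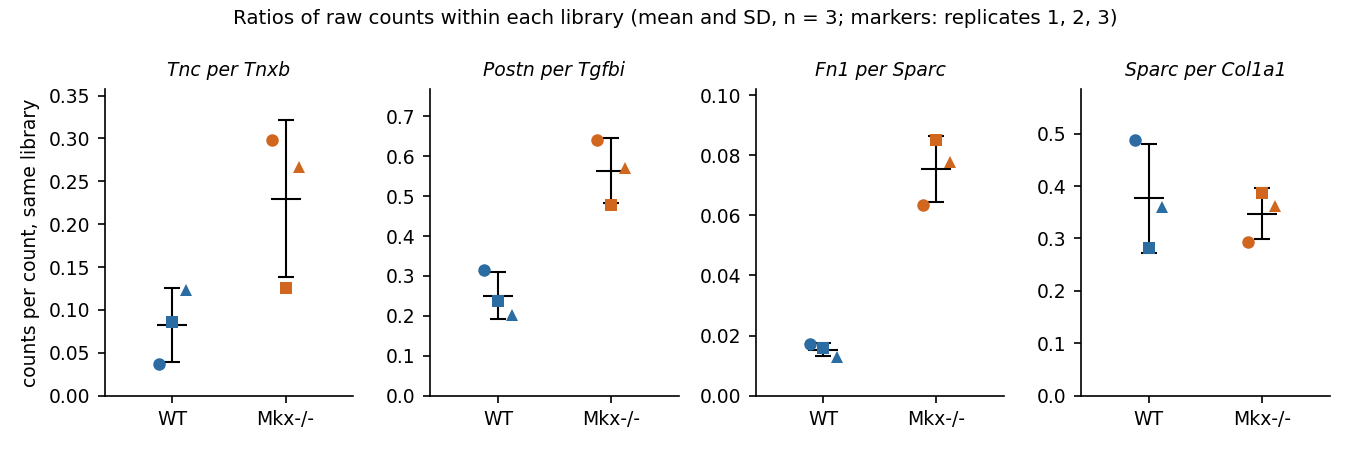
Counts of 1 gene per count of another in the same library, for 4 pairs, with each library as a marker and the mean and SD of 3 libraries as bars. The groups are apart for *Tnc* per *Tnxb*, *Postn* per *Tgfbi* and *Fn1* per *Sparc*, and overlap for *Sparc* per *Col1a1*.

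Receptors for these proteins were measured as a list of 15 integrin, syndecan and urokinase receptor genes, 14 of which were tested. By edgeR 0 were higher and 0 lower, while 3 had an unadjusted p under 0.05, all of them higher, and DESeq2 called 2 higher. The median log2 fold change was 0.09. The smallest p-values were those of *Itgb3*, the beta chain of the vitronectin receptor (log2 fold change 0.82, edgeR adjusted p = 0.0723), *Plaur*, the urokinase receptor that binds vitronectin (0.75, adjusted p = 0.0787), and *Itga5*, the alpha chain of the main fibronectin receptor (0.52, adjusted p = 0.0834). Of 14 tested genes for fibronectin fibril assembly and for adhesions to it, 0 were higher and 2 were lower by edgeR. At an unadjusted p under 0.05, 3 were higher and 2 lower, DESeq2 called 2 in each direction, and scaling by total counts called 4 higher. *Fbln1*, a fibulin that binds fibronectin, fell from 67.8 ± 20.1 to 22.7 ± 0.479 CPM (log2 fold change -1.58, adjusted p = 0.00525). *Ltbp1*, which anchors latent TGF-beta to fibronectin, fell from 174 ± 28.8 to 92.1 ± 13.0 CPM (-0.92, adjusted p = 0.0215, edgeR), and its call was lost in 5 of the 16 alternatives. The list's median was 0.20.

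Of 10 partners of periostin, 2 were higher and 1 was lower by edgeR, with a median of -0.16, whereas DESeq2 called 2 higher and 4 lower. *Col5a1*, a fibril-nucleating collagen, rose from 743 ± 140 to 3320 ± 483 CPM (SD, n = 3; log2 fold change 2.16, adjusted p = 0.00141, edgeR), and *Loxl1*, a crosslinking enzyme, rose by a log2 fold change of 1.12 (adjusted p = 0.0151, edgeR). *Lox*, the crosslinking enzyme whose activation periostin aids, fell by 1.41 on the log2 scale (adjusted p = 0.0122, edgeR), from 3895 ± 666 to 1470.2 ± 322 CPM. *Lox* and *Loxl1* lost their calls without WT replicate 3 (adjusted p = 0.0556 and 0.0761) and held them in the other 15 alternatives. Among 8 genes of collagens that Sparc binds, *Col5a1* among them again, 5 were higher and 0 were lower by edgeR, with a median of 1.04. DESeq2 called 5 higher and 2 lower, and edgeR with total-count scaling called 5 higher and 1 lower. *Col5a2*, *Col4a2* and *Col4a1* rose by 1.25, 1.10 and 0.99 on the log2 scale (adjusted p = 0.00445, 0.00902 and 0.0169, edgeR), whereas *Col1a2* had -1.02 and did not pass (adjusted p = 0.0933). The calls of *Col5a2*, *Col4a2* and *Col4a1* held in 16, 15 and 12 of the 16 alternatives. Without WT replicate 3 only 2 of the 8 were higher.

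Genes related to Sparc by its calcium-binding module differed in direction. Of 5 tested, 3 were lower and 1 was higher by edgeR, where 2.26% and 3.18% of all tested genes were. DESeq2 called 3 lower and 2 higher. The summed level of the list, most of it from *Fstl1*, was 1699 to 2146 CPM in WT and 2376 to 2778 CPM in *Mkx-/-* tendons. *Fstl1*, named after its values were seen, had 1509 ± 260 and 2353 ± 183 CPM (SD, n = 3 each). Every *Mkx-/-* library was above every WT library, as for 14.6% of all tested genes, but *Fstl1* did not pass (log2 fold change 0.64, adjusted p = 0.0731, edgeR). *Spock2*, a testican proteoglycan, fell from 308 ± 52.4 to 77.8 ± 13.9 CPM (SD, n = 3; log2 fold change -1.98, adjusted p = 0.00141, edgeR), and *Smoc1* and *Spock3* fell from 5.90 and 4.79 CPM by 2.36 and 2.11 on the log2 scale (adjusted p = 0.00771 and 0.0349, edgeR). The call of *Spock3* was lost in 4 of the 15 alternatives that tested it. *Smoc2* rose by 0.97 (adjusted p = 0.0465, edgeR), a call lost in 6 of 16 alternatives. Of 4 tested ligands and relatives of the tenascins, the proteoglycans *Acan* and *Vcan* were higher (2.20 and 1.12, edgeR adjusted p = 0.00380 and 0.00558), and both were called under every alternative. By edgeR 0 of the 4 were lower, and 1 was lower without WT replicate 1. *Tnr*, the remaining tenascin gene, had 0 counts in WT and a mean of 0.227 CPM in *Mkx-/-* tendons, and was not tested.

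Of 16 tested matricellular genes of other families, 9 were higher and 0 were lower by edgeR, where 3.18% and 2.26% of all tested genes were. DESeq2 called 12 higher and 1 lower. The median log2 fold change was 0.97, close to the 0.95 of the genes described here. *Nov*, a CCN protein, rose from 190 ± 46.1 to 1334 ± 409 CPM (SD, n = 3; 2.81, adjusted p = 0.00181, edgeR). *Thbs4* rose from 4638 to 11147 CPM and *Fbln5* from 87.5 to 140.4 CPM (edgeR adjusted p = 0.0118 and 0.0141), calls that held in 13 and 11 of the 16 alternatives. The number higher fell to 2 without WT replicate 2 or 3 and reached 13 with a filter of 1 count in any library. Of 13 genes that respond to or belong to TGF-beta signalling, to which *Fn1*, *Tgfbi*, *Postn* and *Tnc* are known to respond, 4 were higher and 1 was lower, with a median of 0.20. *Bambi*, a pseudoreceptor, fell by 1.87 on the log2 scale (adjusted p = 0.000878, edgeR), and *Pmepa1* and *Ctgf* rose by 0.94 and 1.20 (edgeR adjusted p = 0.0206 and 0.0226), calls lost in 5 and 4 of the 16 alternatives. The number higher fell to 1 without WT replicate 2, WT replicate 3 or *Mkx-/-* replicate 1, and to 2 without *Mkx-/-* replicate 2, and the number lower was 2 without WT replicate 1 and 3 by DESeq2.

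Bulk libraries hold several cell types, and fewer cells of a type cannot be told apart from less RNA per cell. The wide spread of *Vtn* and *Sparcl1* followed other lists in part. The summed level of 10 pericyte and smooth muscle markers was 339 to 401 CPM in WT, and 359, 355 and 930 CPM in *Mkx-/-* replicates 1, 2 and 3, with 0 of the 9 tested past the threshold by edgeR, 3 higher at an unadjusted p under 0.05 and 1 called by DESeq2. *Acta2*, smooth muscle actin, was at 396 CPM in *Mkx-/-* replicate 3 and between 50.2 and 101 CPM in the other 5 libraries. *Myh11*, a smooth muscle myosin named after its values were seen, was at 202 CPM there and between 1.97 and 2.75 CPM elsewhere. The summed level of 10 Schwann cell markers was 6002 to 8276 CPM in WT and 9652, 15770 and 18030 CPM in the *Mkx-/-* libraries, with 0 of 10 past the threshold by edgeR but 7 higher at an unadjusted p under 0.05 and 7 by DESeq2. Of 12 endothelial markers 2 were higher by edgeR, 7 at an unadjusted p under 0.05 and 4 by DESeq2. Their summed level was 71.8 to 88.3 CPM in WT and 133 to 179 CPM in *Mkx-/-* tendons. The order of the 3 *Mkx-/-* libraries for *Vtn* and *Sparcl1* was that of the Schwann and endothelial sums, and the part of these cells in either gene was not tested.

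**Figure D5:**
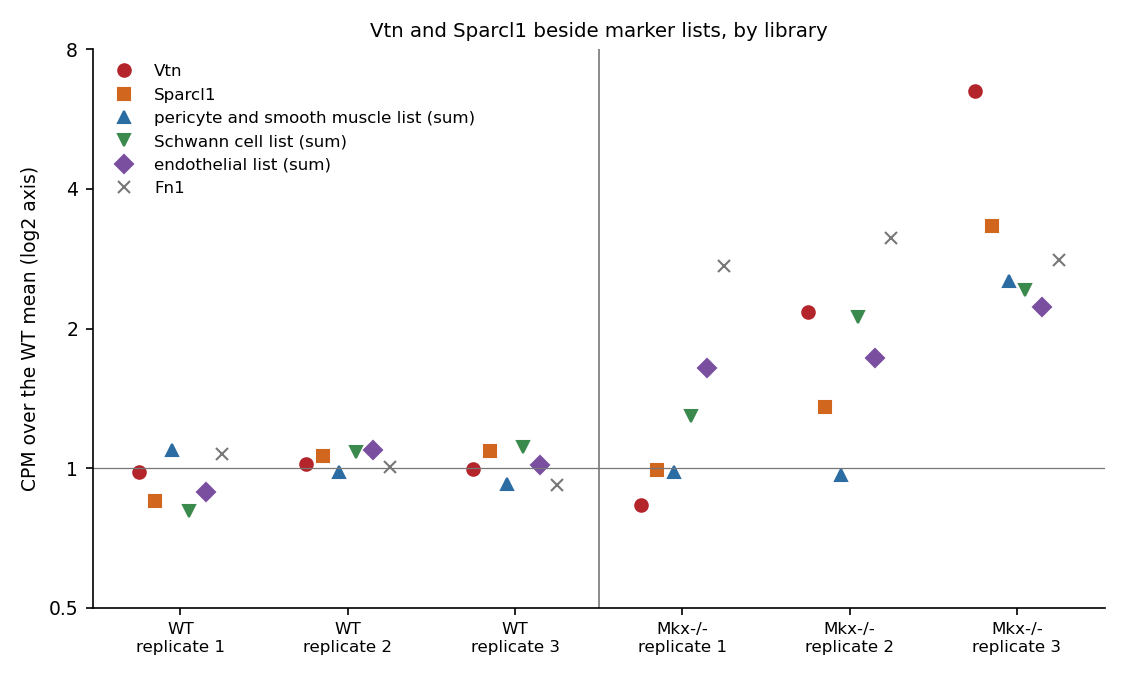
CPM of *Vtn*, *Sparcl1* and *Fn1*, and summed CPM of 3 marker lists, each divided by its WT mean (log2 axis), in the 6 libraries. *Vtn*, *Sparcl1* and the pericyte and smooth muscle list are highest in *Mkx-/-* replicate 3, whereas *Fn1* is at a similar height in all 3 *Mkx-/-* libraries.

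The called genes did not share that order. *Fn1* and *Ecm1* were highest in *Mkx-/-* replicate 2 and *Postn* in replicate 1, where the summed level of 12 skeletal muscle markers was also highest (3055 CPM, against 1467 and 578 CPM in replicates 2 and 3 and 102 to 431 CPM in WT). Of these 12 markers 2 were higher by edgeR, 11 at an unadjusted p under 0.05 and 6 by DESeq2. Markers of sheath and progenitor fibroblasts, which also express *Fn1*, *Postn* and *Tnc*, summed to 2758 to 3372 CPM in WT and 2909 to 3426 CPM in *Mkx-/-* tendons, with 4 of 10 higher and 1 lower. The lower gene was the most abundant of them, *Prg4* (lubricin), with 1257 ± 167 and 570 ± 217 CPM (SD, n = 3 each). With *Prg4* the sums overlapped between the groups. Without *Prg4* the other 9 summed to 1680 to 2090 CPM in WT and 2456 to 2606 CPM in *Mkx-/-* tendons, so that every *Mkx-/-* library was above every WT library in sum. Of these 9 genes, 6 were apart in this way, as were *Fn1*, *Postn* and *Ecm1* and 14.6% of all tested genes. Cartilage markers summed to 542 to 1078 CPM and 757 to 1251 CPM, with 2 of 9 tested higher (*Acan* and *Matn3*) and *Matn1* at 0 in every library. Most of that sum came from *Col2a1* (748 ± 261 and 705 ± 220 CPM, SD, n = 3 each), and without it the list summed to 66.9 to 95.01 CPM in WT and 219.7 to 296 CPM in *Mkx-/-* tendons. Most of what remained was *Acan* (means of 32.0 and 147 CPM) and *Matn3* (33.2 and 90.8 CPM). Of these 10 remaining genes, 4 had every *Mkx-/-* library above every WT library. Leaving the most abundant gene out of these sums was decided after seeing the data. Osteoblast markers were low, at 4.02 to 6.57 and 7.80 to 8.34 CPM in sum, with 0 of 3 tested past the threshold by edgeR, 2 higher at an unadjusted p under 0.05, and 1 called by DESeq2. Macrophage and leukocyte markers summed to 618 to 675 CPM in WT and 397 to 492 CPM in *Mkx-/-* tendons. Of these 11 genes 3 were lower by edgeR, 10 at an unadjusted p under 0.05 and 5 by DESeq2. The part of these cells in the differences of *Fn1*, *Postn* and *Ecm1* was not tested.

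For the 3 called genes, the tested genes with the most similar profile over the 6 libraries were sought, by the root mean square difference of log2 CPM centred on each gene's mean. For *Fn1* these were *Sod3* (extracellular superoxide dismutase, difference 0.117), *Cilp2* (a matrix protein of cartilage and tendon, 0.123) and *Tmem100* (0.146), with log2 fold changes of 1.65, 1.37 and 1.40. *Postn* was most like *Syt9* (0.160), *Hmcn2* (0.163) and *Atp8b4* (0.233), at a greater distance than for *Fn1*. *Ecm1* was most like *Ly6a* (the progenitor surface marker Sca-1, 0.0772), *Duoxa1* (0.0953) and *Mmp2* (a gelatinase, 0.106), with log2 fold changes of 0.83, 0.88 and 1.12. None of the matricellular genes appeared among the nearest 3 of another.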

How the data were processed

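Ion Proton sequencing was done on tail tendons, with 3 WT and 3 *Mkx-/-* libraries. According to the methods of the study, the authors removed adaptors and low-quality reads and aligned the rest to mm9 with MapSplice, and they deposited raw read counts per gene symbol. The counting program, its annotation, strand and treatment of multiply mapped reads were not given in the sources used here. The text of the study and the labels give different ages, and the labels were followed. Single-cell data were not analysed here.

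From the deposited counts, genes were filtered with filterByExpr, scaled by TMM and compared with edgeR 4.0.16 in R 4.3.3 (quasi-likelihood test, genotype only, prior count 0.125, Benjamini-Hochberg adjustment). Intervals are 95% intervals of that fit. The scripts were tested on simulated data. Replicate libraries differed by more than counting error (chi-square over its degrees of freedom, 7.59 to 36.4), so no pair agreed within sampling noise. With 3 against 3, an exact permutation test cannot give a p below 0.1. The common biological coefficient of variation was 0.196.

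The genes, lists and tests were chosen with earlier results of these data known. Named were the 10 genes, *Mkx*, at most 4 genes of each partner list by smallest p, at most 3 marker genes by level, and the 3 nearest profiles of each called gene with a mean of at least 5 CPM (offset 0.5 CPM). A few genes that this rule covers are not reported here. The 16 alternatives were DESeq2 1.42.0, RLE, upper-quartile and total-count scaling, TMM without *Sparc*, *Col1a1* and *Col1a2*, filters of 1 count in any and 10 counts in every library, a robust fit, a replicate block, removal of skeletal muscle genes, and each of 6 libraries left out. Running them for partner genes was decided after seeing the data. Exon lengths and coordinates are from GENCODE's mm9 annotation, and promoters from RefSeq.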

Additional observations from a re-analysis of the deposited data

How the results depend on the processing

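Over 144 estimates (9 genes under 16 alternatives), 130 kept their direction and side of the threshold, 10 newly passed, 4 no longer passed, and none turned direction. *Fn1* passed in all 16, *Postn* and *Ecm1* in 14 each, *Sparc* in 4, *Vtn* in 3, *Tnc* in 2, *Tgfbi* in 1, and *Tnxb* and *Sparcl1* in 0. The cause of these differences was not tested.

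DESeq2 called 768 genes higher and 565 lower, and 1 matricellular gene lower, against 463, 329 and 0 by edgeR. Total-count scaling, which moves the median log2 fold change of all genes to 0.25, called 1358 genes higher and 197 lower and 711 upregulated, with 5 matricellular genes higher and 1 lower. A filter of 1 count in any library called 970 higher, 594 lower, 541 upregulated and 322 downregulated, with 5 and 1 matricellular genes. The robust fit called 1 matricellular gene lower.

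With each library left out in turn, genes higher numbered 117 to 539, lower 127 to 439, upregulated 103 to 321 and downregulated 112 to 248, lowest without WT replicate 3 and highest without WT replicate 1. Matricellular genes higher numbered 1 (*Fn1*, without WT replicate 3) to 4 (with *Vtn*, without *Mkx-/-* replicate 1), and 0 were lower in each fit.

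Replicate numbers are shared between genotypes in the labels. Same-numbered libraries had correlations of -0.000308, -0.235 and 0.313 between their deviations from group means, without a common direction. With 3 libraries per group, these values cannot show whether the numbers pair the libraries. WT replicate 1 correlated best with *Mkx-/-* replicate 2 (0.442). With a replicate block, 264 genes were higher and 170 lower, and the same 3 matricellular genes passed, with adjusted p-values of 0.0196, 0.0269 and 0.0358 for *Fn1*, *Postn* and *Ecm1*.

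Depth limits *Tnn* (0 counts) and *Vtn* in WT (31 to 37 counts per library). For *Vtn* in *Mkx-/-* tendons and for the other genes, the spread between libraries exceeds counting error.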

Other observations

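Marker lists that took no part in the comparisons of the matricellular genes showed further differences between libraries. Red blood cell markers summed to 85.1 to 452 CPM in WT and 51.8 to 92.7 CPM in *Mkx-/-* tendons, with the highest value in WT replicate 1. Keratinocyte markers summed to 3.07 to 14.3 CPM in WT and 19.5 to 25.6 CPM in *Mkx-/-* tendons. Adipocyte markers summed to 2.72 to 3.70 CPM and 2.66 to 5.34 CPM.

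The profiles of genes that did not pass the threshold were compared in the same way as those of the called genes, after their values were seen. *Sparcl1* was most like *F11r* (root mean square difference 0.123 on the log2 scale) and *Notch3* (0.128), a receptor of pericytes and smooth muscle. *Vtn* was most like *Pmp2* (0.285), a myelin protein. *Tnc* was most like *Igf2* (0.124). No explanation was tested for these likenesses, and 6 libraries give few points to compare.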
